A study of Rattus norvegicus with 4 samples.

Results

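Small RNAs of rat aortic vascular smooth muscle cells were compared between 3 h and 1 h of angiotensin II (Ang II), the peptide that narrows vessels and drives growth of these cells. The comparison used 2 of the 4 libraries of the series, 1 library a side, chosen by their treatment label. It asks which small RNAs differ between the immediate and the early response in cells that all received the hormone. The cells came from the aorta of Sprague-Dawley rats, were grown in M199 medium with 10% serum, were kept without serum for 48 h, and then received 100 nM Ang II for 1 h or 3 h. The remaining libraries, untreated cells and cells after 24 h of Ang II, are given only as further values. The labels name no passage, animal or number of pooled cultures. With 1 library a group there is no replicate check, no test of conditions and no p-value. The hormone cannot be told apart from time in culture, nor can fewer cells of a type from less RNA per cell.

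A microRNA (miRNA) is cut from a hairpin transcript and guides Argonaute proteins to messenger RNAs, mostly through its seed, bases 2 to 8. A hairpin can yield a mature miRNA from each arm, named 5p and 3p, and 1 arm is usually kept far more often. In vascular smooth muscle, miR-143 and miR-145 support the contractile state, while miR-21, miR-221 and miR-222 are known for the synthetic, dividing state. miR-132 and miR-212 are transcribed together under the cAMP-responsive factor CREB, which Ang II signalling can activate.

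The mature sequences on which the results turn are printed first, 5′ to 3′, with the seed in capitals. They come from RefSeq (build GRCr8). The first 4 are the arms of the miR-132 and miR-212 hairpins, whose 3p arms share the seed AACAGUC, the next 2 are the arms of miR-222, and the others lay among those farthest from equality in either direction.
miR-132-3p: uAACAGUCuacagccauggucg
miR-212-3p: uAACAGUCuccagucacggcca
miR-132-5p: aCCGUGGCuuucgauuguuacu
miR-212-5p: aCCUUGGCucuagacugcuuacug
miR-222-5p: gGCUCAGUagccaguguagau
miR-222-3p: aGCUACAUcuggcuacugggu
miR-190a-5p: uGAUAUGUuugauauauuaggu
miR-24-1-5p: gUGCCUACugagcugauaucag
miR-204-5p: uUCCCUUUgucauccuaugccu
miR-423-5p: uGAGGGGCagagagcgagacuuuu
miR-181a-5p: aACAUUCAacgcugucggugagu

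At 1 h 13119417 reads named a sequence, and at 3 h 14370167. Those starting as a reference miRNA does made up 72.8% at 1 h and 74.4% at 3 h. Levels are given as RPM, reads per 1000000 of these totals, and 3 reads, the most that a count of 0 allows, are 0.229 RPM at 1 h and 0.209 RPM at 3 h. A ratio is the 3 h level over the 1 h level, with an exact 95% interval that covers only counting error. The interval treats each read as independent, although copies made by PCR are no independent molecules, so it can be too narrow. A miRNA or tag counted as called where its levels, each with 1 RPM added, differed by more than 1.5-fold and the higher library held at least 100 reads. Technical measures of the adapter set the 3 h library apart, those given here and one among reads of 42 nt given below. Of the reads that hold 12 bases of the 3′ adapter, 0.919% were 42 nt long at 3 h, against 28.4% at 1 h, 25.7% in the untreated library and 25.3% at 24 h. Conversely 46.1% of them were 24 to 27 nt long at 3 h, against 5.24%, 5.61% and 6.08%. Adapter-bearing reads were 0.186% of all reads at 3 h and 0.210% at 1 h. Leaving out these tags and tags with an unread base kept both miRNA calls below.

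The cells carried their defining miRNAs at both times. miR-143-3p held 302819 RPM at 1 h and 309959 RPM at 3 h, and miR-145-5p 2421 RPM and 2216 RPM. Among 5 blood and immune markers in the reference table, miR-142-5p, miR-223-3p and miR-144-3p had 0 reads in both libraries, miR-142-3p had 1 read and 7 reads, and miR-451-5p had 5 and 2. The endothelial miR-126a-3p had 1326 reads at 1 h and 1650 at 3 h, a ratio of 1.14 (1.06 to 1.22), while miR-126a-5p had 160 and 153, a ratio of 0.873 (0.695 to 1.097). The summed level of both endothelial markers was 113 RPM and 125.5 RPM. In the striated muscle list miR-133b-3p, miR-208a-3p and miR-208b-3p were at 0, and miR-133a-3p had 1 read and 11 reads. miR-206-3p had 26 and 28, and miR-499-5p 29 and 26. The summed level was 111 RPM and 102 RPM, most of it miR-1-3p (107 RPM and 97.5 RPM, 1401 reads in each library). Neural markers summed to 231 RPM and 242 RPM, with all 4 measured members above a ratio of 1. Liver and endocrine markers summed to 239 RPM and 272 RPM, with all 3 measured members above 1. Epithelial markers summed to 6.40 RPM and 3.55 RPM, with miR-205 at 0 in both. Their part in the results was not tested.

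Between 1 h and 3 h the miRNAs moved little, and those that moved most were miR-132-3p and miR-222-5p. Of 169 miRNAs with 100 reads, these 2 were higher at 3 h (1.18%) and 0 were lower (0%). The median log2 ratio over the 169 was 0.04, and the middle of the distribution lay between -0.11 and 0.15 (quartiles). Ratios beyond 1.1-fold were more even, with 50 higher and 30 lower. Counting intervals lay above 1 for 58 miRNAs, below 1 for 42 and held 1 for 69. Many small ratios thus exceed counting error, if each read is taken as independent. Whether they exceed the spread between cultures cannot be known from 1 library a side.

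**Figure D1:**
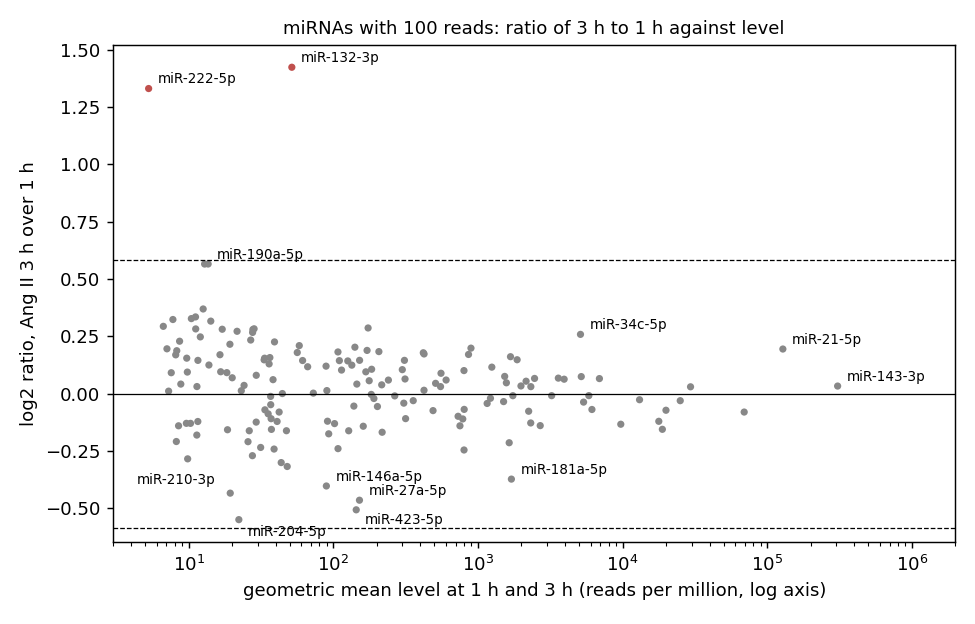
Each point is 1 of 169 miRNAs with at least 100 reads in the higher library; the horizontal axis is the geometric mean level at 1 h and 3 h (RPM, log axis), the vertical axis the log2 ratio of 3 h over 1 h, and dashed lines mark 1.5-fold. The 2 red points, miR-132-3p at 1.42 and miR-222-5p at 1.33, stand apart from the others, which run from -0.55 to 0.57.

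miR-132-3p, the miRNA induced through CREB, had 410 reads at 1 h and 1229 at 3 h, or 31.3 RPM and 85.5 RPM. The ratio was 2.74 (2.45 to 3.07). The 1 h level lay beside that of untreated cells (34.1 RPM), and the 3 h level beside that of 24 h (82.8 RPM), so within the 4 libraries it was low in the first 2 and high in the later 2. Its mature sequence lies at chr10:60522091-60522112 on the plus strand, in the Mir132 hairpin (chr10:60522033-60522133), which no other gene's span holds in the RefSeq table. The tag identical to the mature sequence carried most of the difference, with 275 reads at 1 h and 877 at 3 h, a ratio of 2.91 (2.54 to 3.35). The form with 1 more base at its 3′ end went from 40 to 138 reads, a ratio of 3.15 (2.20 to 4.60). Both forms thus had higher levels at 3 h.

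The other arms of the same locus were read too rarely for the call rule. miR-212-3p, which shares the seed of miR-132-3p, had 31 reads at 1 h and 60 at 3 h, a ratio of 1.77 (1.13 to 2.82). Untreated cells had 28 reads and the 24 h library 75. miR-212-5p had 14 reads at 1 h and 32 at 3 h, a ratio of 2.09 (1.08 to 4.23), against 5 in untreated cells and 17 at 24 h. miR-132-5p, the passenger arm of miR-132, had 14 and 16 reads, a ratio of 1.04 with the wide interval of 0.477 to 2.31. All 4 arms therefore lay above 0 on the log2 scale, with a median of 0.63, beside 0.04 for the 169 miRNAs. Earlier results of these data had already shown miR-132-3p and both miR-212 arms against the control, so the list is not independent evidence.

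miR-222-5p was the only other miRNA called. It is the minor arm of the miR-222 hairpin (chrX:6022621-6022723, plus strand, within LOC120099382 and LOC120099384, lncRNAs whose spans also hold Mir221). It had 40 reads at 1 h and 132 at 3 h, or 3.05 RPM and 9.19 RPM, a ratio of 3.01 (2.10 to 4.41). The untreated library had 25 reads and the 24 h library 24, so the 3 h library was the highest of the 4. The most read form, 1 base longer than the reference (gGCTCAGTagccagtgtagatc), went from 30 to 85 reads, against 15 in each of the untreated and 24 h libraries. The form with 1 base more (gGCTCAGTagccagtgtagatcc) went from 9 to 36 reads, against 6 untreated and 5 at 24 h. The tag identical to the reference had 0 reads at 1 h and 5 at 3 h, so this call rests on the longer forms and is lost if that tag alone is counted. With a pseudocount of 10 RPM the log2 ratio was 0.56, under the limit, and with 300 reads required it is not among the miRNAs considered.

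The major arm did not move with it. miR-222-3p, which targets the cell cycle inhibitor p27Kip1, had 1687 reads at 1 h and 2016 at 3 h, a ratio of 1.09 (1.02 to 1.16). The share of the 5p arm in the reads of the hairpin was 2.32% at 1 h (1.66% to 3.14%) and 6.15% at 3 h (5.17% to 7.25%), and the intervals do not overlap. The neighbouring miR-221 hairpin showed less: miR-221-5p had 1724 and 2176 reads, a ratio of 1.15 (1.08 to 1.23), and miR-221-3p 2130 and 2494, a ratio of 1.07 (1.01 to 1.13). The ratio of miR-221-5p turns to the other side of 1 if the tag identical to the reference is counted alone. Its most read form was 26 nt long (aCCTGGCAtacaatgtagatttctgt), with 1154 reads at 1 h and 1579 at 3 h.

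**Figure D2:**
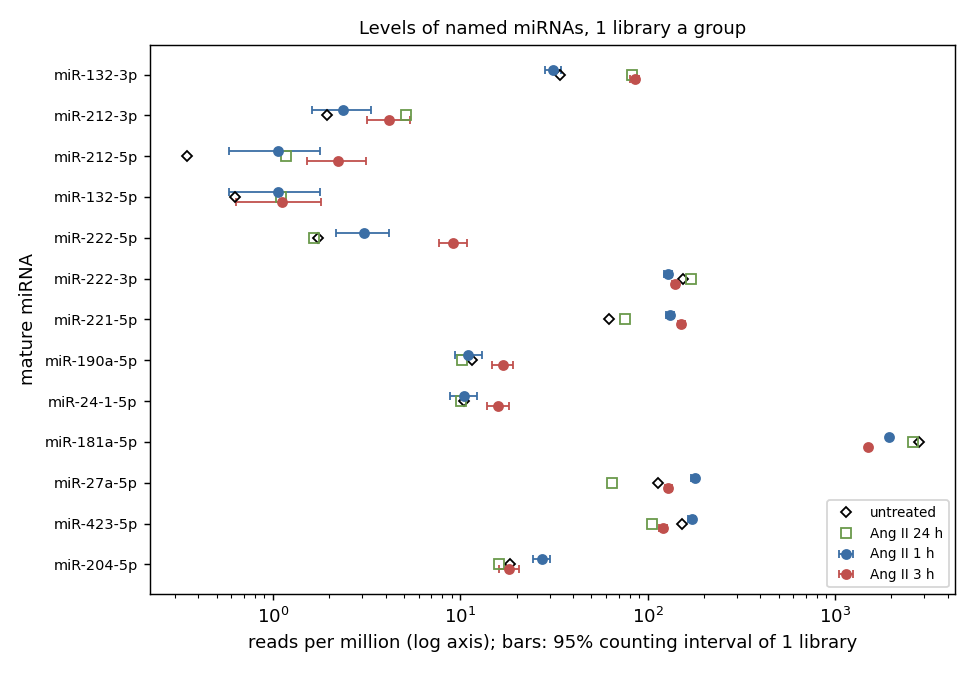
Levels (RPM, log axis) of 13 miRNAs, with blue circles for 1 h, red circles for 3 h and bars for the exact 95% counting interval of each library; open diamonds are untreated cells and open squares 24 h of Ang II. The bars of miR-132-3p and miR-222-5p, both called on these levels, do not overlap at 1 h and 3 h, while those of miR-132-5p nearly coincide.

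Just outside the limit lay 2 further miRNAs with higher levels at 3 h. miR-190a-5p, whose hairpin lies within the gene of the cytoskeletal protein talin 2 (Tln2), had 145 reads at 1 h and 242 at 3 h, a ratio of 1.52 (1.24 to 1.89). miR-24-1-5p, the minor arm of a hairpin within Aopep, had 137 and 229 reads, a ratio of 1.53 (1.23 to 1.90). On the log2(RPM + 1) scale both stood at 0.57, under the limit. Untreated cells and 24 h had 11.6 RPM and 10.3 RPM of miR-190a-5p, and 10.5 RPM and 10.0 RPM of miR-24-1-5p, so for both the 3 h library was the highest (16.8 RPM and 15.9 RPM). The next were miR-193a-3p (144 and 208 reads), miR-149-5p (129 and 182), miR-34b-3p (121 and 170), miR-34c-3p (90 and 127), miR-542-5p (166 and 230) and miR-195-5p (78 and 108). Their ratios ran from 1.26 to 1.32, and the intervals of miR-34c-3p and miR-195-5p hold 1.

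Of the 169 miRNAs with 100 reads none was lower past the limit, and the 10 that fell farthest on the log2 scale had ratios between 0.672 and 0.824. miR-204-5p, from a hairpin within the ion channel gene Trpm3 and known for restraining calcification of smooth muscle, had 356 reads at 1 h and 262 at 3 h, a ratio of 0.672 (0.571 to 0.790). Its levels were 18.4 RPM untreated, 27.1 RPM at 1 h, 18.2 RPM at 3 h and 16.1 RPM at 24 h, so the 1 h library was the high one. It passes the limit when scaled to miRNA reads, with TMM factors or with the reference tag alone. miR-423-5p, within Nsrp1, had 2255 and 1735 reads, a ratio of 0.702 (0.659 to 0.748), and passes only with the reference tag alone. miR-27a-5p, the minor arm of miR-27a, had 2340 and 1854 reads, a ratio of 0.723 (0.680 to 0.769), and it too was highest at 1 h (178 RPM, against 113 RPM untreated and 64.9 RPM at 24 h).

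miR-210-3p, the miRNA of hypoxia, had 298 reads at 1 h and 238 at 3 h, a ratio of 0.729 (0.612 to 0.868). miR-146a-5p, a target of NF-kB that restrains its signalling, had 1353 and 1118 reads, a ratio of 0.754 (0.696 to 0.817). Its paralogue miR-146b-5p, with the same seed (GAGAACU), had 31561 and 36210 reads, a ratio of 1.05 (1.03 to 1.06). miR-181a-5p, the most abundant of these, had 25418 and 21508 reads, a ratio of 0.773 (0.759 to 0.787). It comes from 2 loci that its reads cannot tell apart, and its levels were 2804 RPM untreated, 1937 RPM at 1 h, 1497 RPM at 3 h and 2600.4 RPM at 24 h, lowest at 3 h. The remaining 4 of the 10, miR-664-2-5p, miR-181c-3p, miR-99b-3p and miR-1b, had ratios from 0.799 to 0.824, and that of miR-664-2-5p passes to the other side of 1 with the reference tag alone.

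Of the 99 miRNAs with at least 20 reads over both libraries but under 100 in the higher one, 4 lay past 1.5-fold higher and 4 past 1.5-fold lower. The higher ones were miR-16-3p (9 and 26 reads), both arms of miR-212 and miR-34b-5p. Lower were miR-10b-5p, miR-3075, miR-200c-3p (76 and 46 reads) and miR-325-5p (18 and 8 reads); those outside the lists were named after their values were seen. The farthest from equality was miR-10b-5p, from the Hox gene clusters, with 42 reads at 1 h and 14 at 3 h, a ratio of 0.304 (0.153 to 0.568). Its reference seed is CCUGUAG, against ACCCUGU of miR-10a-5p, so the reference starts farther in than that of miR-10a-5p. Tags with an earlier start are not counted, and these reads may not give the level of miR-10b-5p as a whole. The untreated library had 44 such reads and the 24 h library 12, so for this form the first 2 libraries were high and the later 2 low. miR-3075 had 57 and 32 reads, a ratio of 0.513 (0.322 to 0.804), against 59 untreated and 36 at 24 h.

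Most of the abundant miRNAs stayed close to equality. The 10 most read held 86.6% of miRNA reads at 1 h and 86.8% at 3 h. miR-21-5p, which is abundant in dividing smooth muscle, had 119762 RPM and 137104 RPM, a ratio of 1.14 (1.14 to 1.15), the highest of the 10. Its minor arm miR-21-3p had 583 and 639 reads, a ratio of 1.00 (0.893 to 1.12). The other 9 of the most read had ratios between 0.898 for miR-24-3p and 1.02 for miR-143-3p.

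Lists of related miRNAs are described by their counts and medians beside the 169. In the contractile list 0 of 5 measured members passed the limit, and the median log2 ratio was -0.11. miR-145-5p stood at 0.915 (0.901 to 0.930), miR-143-5p at 0.927 (0.889 to 0.967), and miR-1-3p had 1401 reads in each library, a ratio of 0.913 (0.847 to 0.984). The synthetic list had 1 of 10 members higher (miR-222-5p) and 0 lower, with a median of 0.05, and miR-31a-5p, miR-26a-5p and miR-221-3p among those near 1. The early response list had 1 of 10 members with 100 reads higher (miR-132-3p) and a median of 0.07 over 13 measured members. Its members miR-155-5p (3027 and 2950 reads) and miR-365-3p (1774 and 1736) had ratios of 0.890 and 0.893, and miR-22-3p (16121 and 17418) one of 0.986.

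After the list of miR-132 and miR-212, the highest medians were those of miR-34 (0.32), miR-29 (0.25) and miR-15/16 (0.19), with 0 members called in each. Of the miR-34 family, which p53 induces, miR-34c-5p was the abundant member with 61327 reads at 1 h and 80386 at 3 h, a ratio of 1.20 (1.18 to 1.21). miR-34b-5p had 50 and 92 reads, a ratio of 1.68 (1.18 to 2.42). The 2 arms miR-34b-3p and miR-34c-3p stood at 1.28 and 1.29, and all 4 come from 1 cluster, while miR-34a-5p of another locus stood at 0.885 (0.818 to 0.957). Of the miR-29 family, which represses collagens, miR-29b-3p had 2066 and 2764 reads, a ratio of 1.22 (1.15 to 1.29), miR-29c-3p 144 and 190 (1.20, 0.965 to 1.51), and miR-29a-3p 19557 and 22576 (1.05, 1.03 to 1.07). In the miR-15/16 list, which restrains the cell cycle, 6 of 7 measured members lay above 0 on the log2 scale. The 5 that share the seed AGCAGCA (miR-15b-5p, miR-16-5p, miR-195-5p, miR-322-5p and miR-497-5p) all did, with ratios from 1.06 to 1.26, though the intervals of miR-195-5p and miR-497-5p hold 1.

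Below 0 lay the medians of miR-181 (-0.12) and miR-30 (-0.11), again with 0 members called. Within the miR-181 family, which shares the seed ACAUUCA, miR-181b-5p had 11445 and 10575 reads, a ratio of 0.844 (0.821 to 0.866), but miR-181d-5p stood at 0.998 (0.944 to 1.06) and miR-181c-5p at 1.23 (1.02 to 1.48). The family thus did not move as one. The let-7 median was -0.03 over 9 members, on the other side of 0 with the reference tag alone. The miR-17-92 list had a median of 0.04. In the cluster of miR-99b, let-7e and miR-125a, all 5 arms with 100 reads lay below 0, between -0.30 and -0.07.

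**Figure D3:**
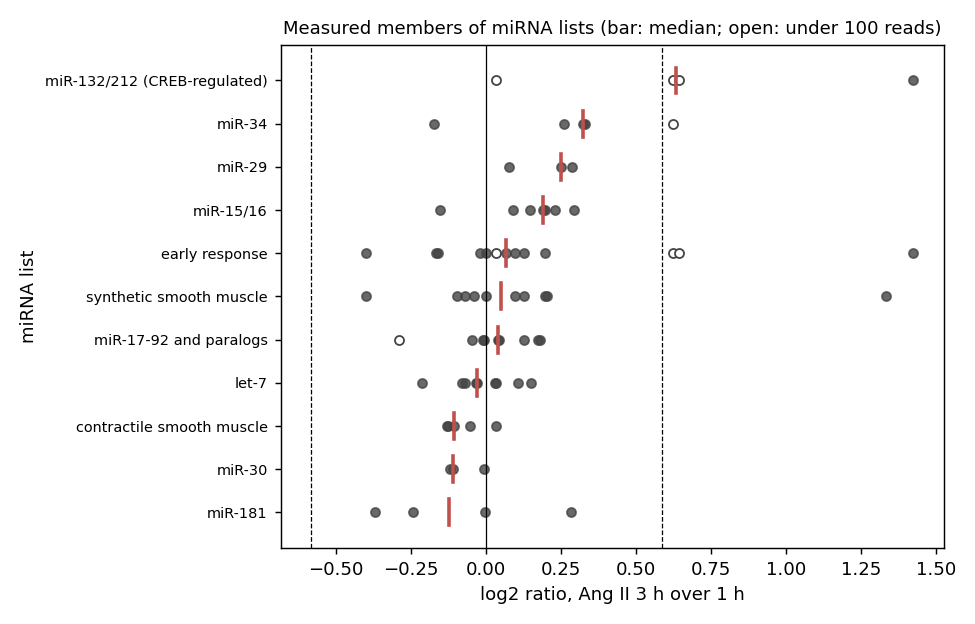
Log2 ratios of 3 h over 1 h for the measured members (20 reads over both libraries) of 11 miRNA lists; filled points have 100 reads in the higher library, open points fewer, red bars are medians and dashed lines mark 1.5-fold. Only miR-132-3p and miR-222-5p lie past the dashed line among the filled points, and the median of miR-132 and miR-212 arms is the highest at 0.63.

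The balance of arms was compared in 33 hairpins whose minor arm had 100 reads. By the log2 change of the ratio of minor to major arm, the largest move was that of Mir222 given above (1.47). Next came Mir24-1, whose 5p arm held 0.0526% (0.0441% to 0.0621%) at 1 h and 0.0893% (0.0781% to 0.102%) at 3 h, although miR-24-3p also comes from Mir24-2. The 3p arm of Mir181c went from 41.6% (36.4% to 47.0%) to 31.8% (27.3% to 36.6%). In Mir664-2 the 3p arm went from 26.7% (23.9% to 29.6%) to 35.7% (32.7% to 38.9%), although miR-664-3p also comes from another locus. In Mir872 the 3p arm went from 16.9% (16.2% to 17.5%) to 13.8% (13.3% to 14.3%). Only the intervals of Mir181c overlap among these. These hairpins were chosen by the size of this change, so the gaps between intervals give no independent support.

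Length variants were compared in 92 miRNAs with 1000 reads in both libraries. Their mean lengths had a median of 22.1 nt at both times, and 3 miRNAs stood out. miR-146b-5p was read more often in short forms: tags of at most 20 nt were 2.14% of its reads at 1 h (1.98% to 2.30%) and 4.13% at 3 h (3.93% to 4.34%). The forms below start where the mature miRNA starts, and the reference form is given for comparison.
18 nt: tGAGAACTgaattccata
19 nt: tGAGAACTgaattccatag
20 nt: tGAGAACTgaattccatagg
24 nt, reference: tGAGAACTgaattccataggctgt
The 18-nt form had 290 reads at 1 h and 713 at 3 h, the 19-nt form 62 and 186, and the 20-nt form 270 and 534. Their ratios were 2.24 (1.955 to 2.58), 2.74 (2.04 to 3.71) and 1.81 (1.56 to 2.10), against 1.20 (1.16 to 1.24) for the reference form, which went from 5056 to 6644 reads. A 24-nt form with another last base was the most read, with 13242 and 15210 reads and a ratio of 1.05 (1.02 to 1.07). A 26-nt form (tGAGAACTgaattccataggctgggt) went the other way, from 112 to 37 reads, a ratio of 0.302 (0.202 to 0.441). The untreated library had 309 reads of the 18-nt form and the 24 h library 304, so the 3 h library was the high one of the 4, though 20-nt reads numbered 525 at 24 h.

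Of the other tags with the largest falls among those assigned to a miRNA, 2 came from miR-181a-5p (aACATTCAacgctgtcggtggg, 120 and 44 reads, and aACATTCAacgctgtcggggggt, 327 at 1 h and a ratio of 0.511) and 1 from miR-30a-5p (tGTAAACAtcctcgactgtaagct, 148 and 74).

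miR-31a-5p had a mean length of 28.2 nt at 1 h and 26.8 nt at 3 h. Tags of 25 nt or more were 47.5% of its reads at 1 h (46.5% to 48.5%) and 36.8% at 3 h (35.9% to 37.7%). The most read of them (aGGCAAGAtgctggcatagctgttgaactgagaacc, 36 nt) had 1974 reads at 1 h and 1599 at 3 h, while the mature form had 1989 and 2431. The ratio of miR-31a-5p as a whole, 0.934 (0.908 to 0.960), therefore joins a lower level of long forms with a higher level of the mature form, whose own ratio was 1.12 (1.05 to 1.18).

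miR-22-3p was longer at 3 h, 24.0 nt against 23.2 nt, through a tag of 42 nt that joins the mature miR-22-3p to the start of miR-21-5p (in capitals the seed of miR-22-3p): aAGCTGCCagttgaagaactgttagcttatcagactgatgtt. It had 799 reads at 1 h and 1578 at 3 h, a ratio of 1.80 (1.65 to 1.97), with 1236 in untreated cells and 1489 at 24 h. All tags that join a mature miRNA to the first 14 bases of a mature miRNA, the same one included, summed to 75.8 RPM at 1 h and 131 RPM at 3 h, a ratio of 1.73 (1.60 to 1.87), against 101 RPM untreated and 126 RPM at 24 h. Of these reads, 855 of 994 at 1 h and 1658 of 1886 at 3 h were joins of miR-22-3p to miR-21-5p, so the sum is mostly that pair. The mature form of miR-22-3p had 13492 and 13806 reads, a ratio of 0.934 (0.912 to 0.957).

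Single tags, each a distinct sequence, moved more than miRNAs did. Of 4106 tags with 100 reads in the higher library, 279 were higher at 3 h (6.79%) and 526 lower (12.8%). Among the 1048 assigned to a miRNA, 18 were higher (1.72%) and 36 lower (3.44%). Among 1517 tags outside miRNAs, which neither match a reference hairpin nor lie within 3 bases of a miRNA's start nor hold adapter, 136 were higher (8.97%) and 339 lower (22.3%). The lower tags were concentrated by length: of 376 tags of 30 to 35 nt, 201 were lower and 15 higher. Reads of that length fell from 3.71% of the library at 1 h (3.70% to 3.72%) to 2.20% at 3 h (2.20% to 2.21%), a ratio of 0.594 (0.591 to 0.597). They were 4.04% in untreated cells and 3.37% at 24 h, so the 3 h library was the lowest of the 4. The other length classes had ratios from 0.993 to 1.11.

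**Figure D4:**
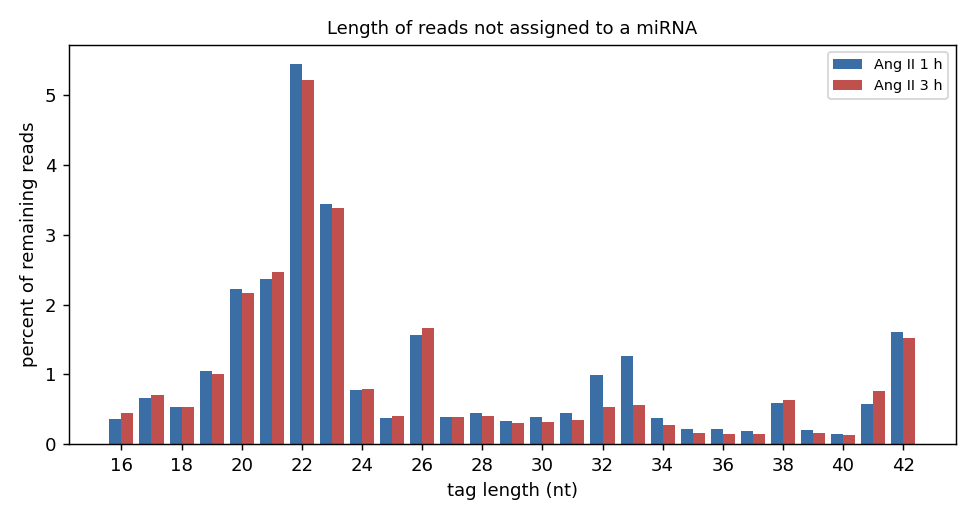
Percent of all remaining reads at each tag length (nt), counting only reads not assigned to a miRNA, with blue bars for 1 h and red bars for 3 h, 1 library each. The largest gaps lie at 32 nt (0.987% and 0.530%) and 33 nt (1.27% and 0.560%). At the other lengths from 27 to 37 nt and at 39 nt, 3 h is also lower, and at 41 nt higher (0.575% and 0.769%). The remaining lengths differ both ways, for example lower at 22 nt (5.46% and 5.22%) and higher at 21 nt (2.36% and 2.47%).

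Most of that loss came from a group of tags led by the 5′ end of 5.8S ribosomal RNA, a structural RNA of the large ribosomal subunit. Tags outside miRNAs were joined where they share 18 bases, and the 25 joined sequences with most reads were counted over all tags that share 18 bases with them. No reference for ribosomal or transfer RNA was used, so the names below come from general knowledge of these sequences. The tags that lead the ribosomal groups named here are printed in lower case, as deposited. The 28S internal tag leads none of the 25 and is the most read tag of a start chosen after its values were seen.
5.8S start: cgactcttagcggtggatcactc
5.8S start joined to a more internal stretch: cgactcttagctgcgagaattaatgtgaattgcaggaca
5.8S, internal: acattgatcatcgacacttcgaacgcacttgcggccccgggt
5.8S, toward the 3′ end: cgcctgtctgagcgtcgct
28S start: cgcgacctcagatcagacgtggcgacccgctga
28S, toward the 3′ end: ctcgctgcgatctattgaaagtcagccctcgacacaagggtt
28S, internal: tgagaggtgtagaataagtgggaggccc
5S: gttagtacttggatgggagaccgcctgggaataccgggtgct

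Tags of the 5.8S start had 340957 reads at 1 h and 184218 at 3 h, or 25989 RPM and 12819.5 RPM, a ratio of 0.493 (0.490 to 0.496). Untreated cells had 31310.3 RPM and the 24 h library 14119.7 RPM, so the first 2 libraries were high and the later 2 low. Of its 287 tags with 100 reads 202 were lower and 13 higher. Between 30 and 35 nt these tags were 1.57% of all reads at 1 h and 0.476% at 3 h, a ratio of 0.303 (0.300 to 0.306). All other reads of that length were 2.14% and 1.73%, a ratio of 0.807 (0.803 to 0.812). The ratio thus differed by length within the group. Its tags of 33 nt had 7763 RPM and 1835 RPM (ratio 0.236, 0.233 to 0.240) and those of 32 nt 5805 RPM and 2006 RPM (0.346, 0.341 to 0.350). Its tags of 23 nt had 2959 RPM and 2100 RPM (0.710, 0.699 to 0.720), and those of 24 and 25 nt stood at 1.13 and 1.14. Of the 5 largest falls among tags not assigned to a miRNA, 3 were 33-nt forms of the 5.8S start that differ in their last bases (the other 2 hold adapter). One of them, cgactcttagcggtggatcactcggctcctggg, had 621 reads at 1 h and 16 at 3 h, against 631 untreated and 108 at 24 h.

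**Figure D5:**
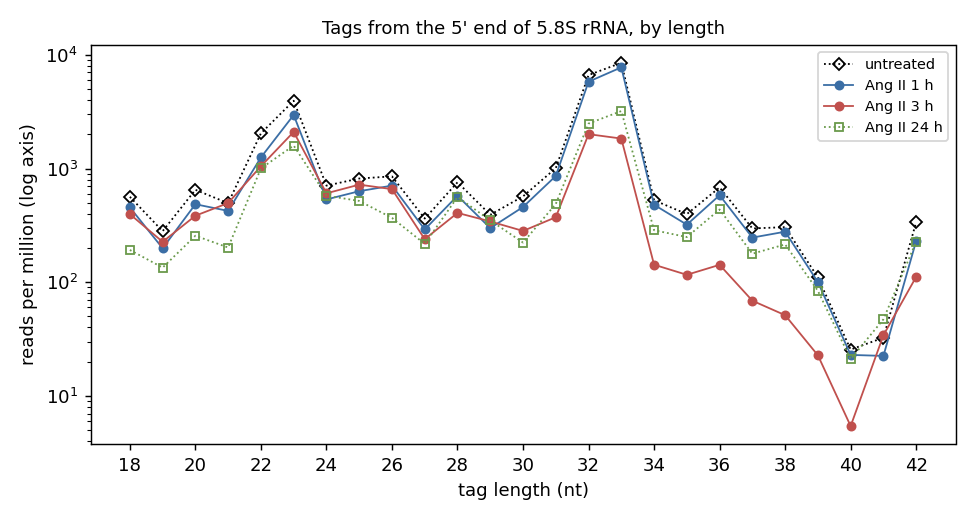
Level (RPM, log axis) of tags sharing 18 bases with the 5.8S start group, by tag length in nt, in each of the 4 libraries (filled circles 1 h and 3 h, open symbols untreated and 24 h). Blue (1 h) lies just below the untreated library at each length, while red (3 h) lies below blue at each length from 30 to 40 nt, and on either side of it from 18 to 29 nt.

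Among other stretches of the same RNA, ratios lay on both sides of 1. The group led by a tag that joins the 5.8S start to an internal stretch had 955 RPM at 1 h and 1316 RPM at 3 h, a ratio of 1.38 (1.35 to 1.41). Any tag sharing 18 bases with the group was counted, so wholly internal tags are included. The leading tag itself held 940 of 12535 reads at 1 h and 1443 of 18911 at 3 h, a ratio of 1.40 (1.29 to 1.52). The internal group had 707 RPM and 974 RPM, a ratio of 1.38 (1.34 to 1.41), while the group toward the 3′ end had 628 RPM and 515 RPM, a ratio of 0.819 (0.794 to 0.846). Chosen after its values were seen, an internal start of tags with shared first 18 bases (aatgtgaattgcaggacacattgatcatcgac) had 273 reads at 1 h and 750 at 3 h, a ratio of 2.51 (2.18 to 2.89). Its levels were 47.0 RPM untreated, 20.8 RPM at 1 h, 52.2 RPM at 3 h and 30.3 RPM at 24 h, so the 1 h library was the lowest. Thus 5.8S tags lay on both sides of equality, among internal stretches and, by length, within the group led by the start.

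The 28S groups named here lay on both sides of 1. Groups without a name may also be ribosomal, so these values give no trend along 28S. Among those, the group led by gtggaacctggcgctaaac had 3532 RPM at 1 h and 2783 RPM at 3 h, a ratio of 0.788 (0.777 to 0.799). That led by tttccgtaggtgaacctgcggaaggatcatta had 693 RPM and 528 RPM, a ratio of 0.762 (0.739 to 0.785). Over all 25 groups, 11 had ratios above 1 and 14 below. The 28S start had 3263 RPM at 1 h and 2559 RPM at 3 h, a ratio of 0.784 (0.773 to 0.795), and the group toward the 3′ end 1393 RPM and 1567 RPM, a ratio of 1.13 (1.103 to 1.15). The internal 28S tags with the start printed above, also chosen after their values were seen, had 298 reads at 1 h and 1055 at 3 h, a ratio of 3.23 (2.84 to 3.69). Their levels were 55.6 RPM untreated, 22.7 RPM at 1 h, 73.4 RPM at 3 h and 222 RPM at 24 h. The 5S group had 8963 RPM and 8111 RPM, a ratio of 0.905 (0.898 to 0.912). Fragments of transfer RNA of glycine (gcatgggtggttcagtggtagaattctcgc), proline (ggctttggtctaggggtatgattctcgc) and glutamate (tccctggtctagtggttaggattcggcgc) had ratios of 0.807 (0.793 to 0.821), 0.706 (0.691 to 0.721) and 0.762 (0.746 to 0.777). Their levels at 3 h were 1623 RPM, 1035 RPM and 1204 RPM.

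Over the 25 joined sequences 11 had a ratio above 1 and 14 below, with a median of 0.905. The lowest was 0.484 (0.474 to 0.495) for a short sequence of 19 nt without a name here (ccccgggggccgggcggcg), with 1755 RPM at 1 h and 849.5 RPM at 3 h, against 2720.3 RPM untreated and 1992 RPM at 24 h, so the 3 h library alone was low. An abundant sequence without a name here (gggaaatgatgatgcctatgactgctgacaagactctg) had 7624 RPM and 10299.9 RPM, a ratio of 1.35 (1.34 to 1.36). Its level was 15114 RPM untreated and 7583 RPM at 24 h. Within this group a form of only 26 nt (gggaaatgatgatgcctatgactgct) went from 49 to 1118 reads, against 94 untreated and 52 at 24 h.

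Several of the largest single-tag ratios belong to tags of 40 to 42 nt, the longest in the files, where the 3 h library stood apart in its adapter reads. A tag of 40 nt (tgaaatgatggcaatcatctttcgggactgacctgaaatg) had 7 reads at 1 h, 1058 at 3 h, 11 untreated and 13 at 24 h, while the form with 1 more base had 3703 and 4975, a ratio of 1.23. A second tag of 40 nt (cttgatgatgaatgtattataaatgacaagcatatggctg) had 2, 323, 2 and 0 reads at 1 h, 3 h, untreated and 24 h, and a tag of 42 nt (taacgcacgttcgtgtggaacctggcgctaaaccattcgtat) had 336 at 3 h and 0 in each of the other libraries. The last of these tags ends in tcgtat, 6 bases that also open an adapter-bearing tag (tcgtatgccgtcttctgcttgaaaa). Among reads of 42 nt, 0.262% ended in 6 bases of the adapter at 3 h, against 0.00750% at 1 h, 0.0124% untreated and 0.00963% at 24 h. Of 59 tags that hold adapter, 40 were higher at 3 h and 17 lower. The part of read trimming in these single-tag ratios was not tested.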

How the data were processed

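The authors deposited raw, unscaled counts per distinct read sequence (a tag). Per the labels' protocols, libraries took 0.5 µg of total RNA, 12 PCR cycles and inserts of 17 to 52 nt. The submitters' processing notes name Novoalign and rn4, with no role for either; trimming and filtering are not given in the sources used here. A row that names no sequence (5.66% of reads at 1 h and 5.13% at 3 h) was left out. Tags are 16 to 42 nt long.

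A tag was given to the RefSeq (GRCr8) mature miRNA whose first 18 bases it holds, the longest common start deciding, and ties were shared equally. The table holds 685 mature sequences of 18 nt or more, and 377 had a read. List names were matched by symbol, 10 of them through an alias. Read totals of the libraries were 13119417 at 1 h and 14370167 at 3 h. Intervals are exact conditional binomial for ratios and Clopper-Pearson for shares, at 95%.

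Named miRNAs are those called, the 10 largest rises and falls with 100 reads, the members of the miR-132/212, contractile, synthetic and early response lists with 20 reads over both libraries, the 10 most read, the 5 hairpins whose arm balance moved most, and the 5 largest rises and falls among tags of miRNAs and among other tags. Members and lists were chosen with earlier results of these data known. Calling was tested on simulated counts. Alternatives were other scalings (TMM, edgeR 4.0.16 in R 4.3.3), pseudocounts, limits and tag sets. Computation used scipy 1.17.1 and pandas 2.3.3 under Python 3.11.15 (numpy 2.4.6), and figures matplotlib 3.10.9.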

Additional observations from a re-analysis of the deposited data

How the results depend on the processing

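No paired analysis was possible because each group has 1 library, and for the same reason no library was left out. Of the 48 named miRNAs, 41 kept 1 sign of their log2 ratio over the alternatives run for each (at most 8) and 7 did not, and 14 of 17 list medians kept theirs. The median of all miRNAs with 100 reads moved between 0.01 and 0.04.

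miR-132-3p was called under every setting tried, with log2 ratios from 1.21 to 1.498, and miR-222-5p under all but 3. Of 169 miRNAs, 2 were higher and 1 lower (miR-204-5p) when scaled to miRNA reads or with TMM factors. A pseudocount of 10 RPM left 1 of 169 higher, and a minimum of 300 reads 1 of 132. The reference tag alone gave 1 higher and 2 lower (miR-204-5p and miR-423-5p) of 120. Adding starts shifted by 1 or 2 nt gave 4 higher of 179 (miR-190a-5p and miR-34b-5p joined). A minimum of 20 reads gave 6 higher and 3 lower of 246. The smaller of the other fold limits gave 8 higher and 6 lower of 169.

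Of 15837 single tags with a minimum of 20 reads, 1446 were higher and 2246 lower, and of 1761 with 300 reads 85 and 185. Of the 4106 tags of the main setting, 119 and 268 lay past 2-fold, and 115 and 262 passed with a pseudocount of 10 RPM. Merged by their first 18 nt the counts were 189 and 274 of 2632. Without tags that hold adapter or an unread base, a setting chosen after seeing the data, they were 234 and 507 of 4030. Among reads not assigned to a miRNA, the 30 to 35 nt share had a ratio of 0.630. The cause was not tested for any of these changes. At 14 and 16 reads the interval of miR-132-5p ran from 0.477 to 2.31, so smaller moves of miRNAs read as rarely were not detectable at this depth.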
